A study of Mus musculus with 12 samples.

Results

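The 6 libraries that differ by a single growth factor are described here: 3 libraries of mouse cochlear glial cells differentiated in SCDM and 3 differentiated in SCDM/FGF, of 12 libraries in the series. They were chosen by their labels alone. SCDM is a DMEM/F12 medium with B27 and N2 supplements, BDNF at 50 ng/ml and NT3 at 50 ng/ml, and SCDM/FGF is the same medium with bFGF (FGF2, basic fibroblast growth factor) at 100 ng/ml. The cells came from the spiral ganglia of postnatal day 4 mice of mixed C57Bl6 and FVB/N background, pooled from several animals of both sexes, and were first grown as spheres in a medium with EGF at 20 ng/ml, bFGF at 10 ng/ml, IGF at 50 ng/ml and heparan sulfate at 50 ng/ml. The labels give 14 days of differentiation and call the libraries biological replicates, but do not say whether the cultures came from separate dissections, so the p-values measure the spread between these libraries. Sphere libraries (n = 3), the cells before differentiation, are given as levels only. They took part in the tests through the shared estimate of the spread, the rescaling of the libraries and the choice of genes tested. The comparison asks what the presence of bFGF changes in the transcripts of these cultures after the withdrawal of the sphere medium.

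FGF2 binds FGF receptor tyrosine kinases with heparan sulfate chains as co-receptors, and the activated receptor signals through FRS2 adaptors, RAS and the ERK kinases. ERK activity raises transcription of ETV-family transcription factors and of its own inhibitors, the Sprouty, Spred and dual specificity phosphatase (DUSP) proteins, so that these genes are widely used as a readout of the pathway. In peripheral nerve, ERK signalling in Schwann cells is known for its part in the repair state that follows injury, and FGF signalling in the inner ear is known from otic induction and from the differentiation of sensory and mesenchymal cells.

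Gene expression is given as scaled TPM (transcript abundance per length, made comparable between libraries by rescaling), and differences are log2 fold changes of scaled TPM + 1 with SCDM/FGF minus SCDM, which understate the change of genes with low values. The number of reads behind each library is unknown, and between 21625 and 21985 genes were above 0 in each of the 6 libraries. Pearson's r across the 16016 genes tested lay between 0.983 and 0.985 within the media and between 0.929 and 0.936 across them. Because the libraries are bulk RNA, fewer cells of a type and less RNA per cell cannot be told apart. As to the labelled cells, the 5 glial markers (Sox10, S100b, Erbb3 and Sox2 among them) summed to between 124.7 and 143 scaled TPM in SCDM and between 110.2 and 139 in SCDM/FGF, against 372 to 385 in spheres. The 5 neuronal markers (Tubb3, Map2, Snap25, Syp and Stmn2) summed to between 18.1 and 21 in SCDM and between 16.4 and 21.6 in SCDM/FGF, and Snap25 stayed at or under 0.519 in each of the 6 libraries. Markers of macrophages (Ptprc, Cd68, Csf1r, Adgre1 and C1qa) summed to between 887 and 965 in SCDM and between 918 and 1020.1 in SCDM/FGF, above the glial markers, against 71 to 87 in spheres.

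Of the 16016 genes, 3491 rose (21.8%) and 3419 fell (21.3%) in SCDM/FGF against SCDM when genes with a limma adjusted p (Benjamini-Hochberg) under 0.05 were called. Counts of members that rose or fell in the gene lists below are to be read beside these shares. On the deposited TPM without rescaling, 2738 rose and 4261 fell. At least 2-fold changes were made by fewer genes, with 917 higher (5.73%) and 647 lower (4.04%), and changes of at least 1.5 on the log2 scale by 462 (2.88%) and 315 (1.97%). The 3 SCDM and the 3 SCDM/FGF libraries did not overlap for 8266 genes (51.6%). Among genes with a mean of at least 10 scaled TPM, those with the 12 highest fold changes were Ccl11, Mcpt8, Tnfsf11, Mmp3, Gzme, Prok2, Ptprn, Ifitm1, Kng1, Il33, Cyp4a12b and Ackr4, several of which encode secreted cytokines or proteases. Prok2, a chemokine-like peptide, was listed at 0 in the 3 SCDM libraries and at 35, 38.8 and 28.3 in SCDM/FGF. Those with the 12 lowest were Col2a1, Col8a2, Col9a1, Car3, Fxyd6, Chrdl1, Eln, Pcp4, Acan, Cpxm2, Col11a2 and Tnmd, of which 6 encode collagens or other structural matrix proteins of cartilage and elastic tissue.

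**Figure D1:**
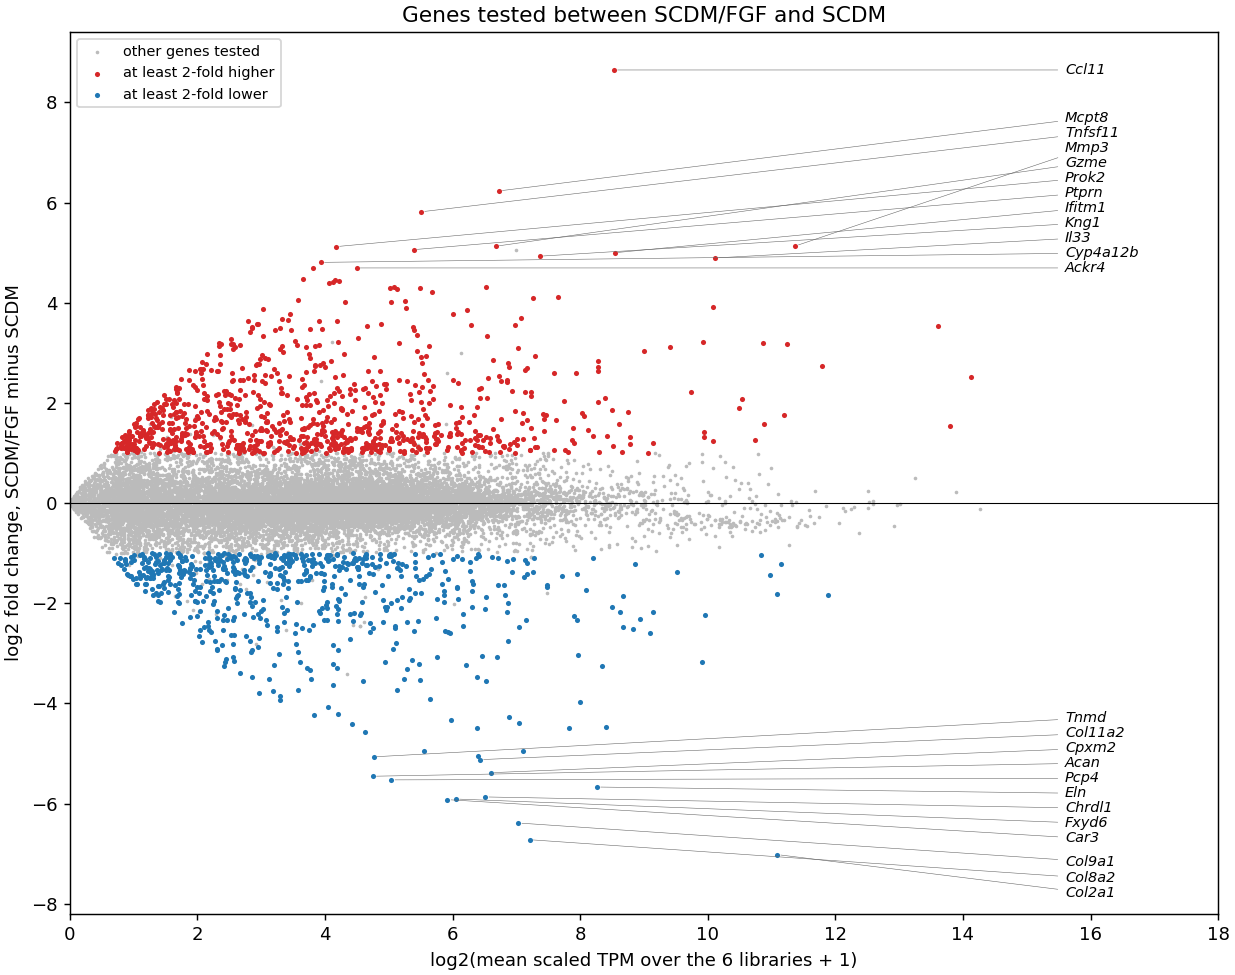
Each point is one of the 16016 genes tested, with the log2 of the mean scaled TPM + 1 over the 6 libraries on the x axis and the log2 fold change (SCDM/FGF minus SCDM) on the y axis. Red points are the 917 genes at least 2-fold higher and blue points the 647 at least 2-fold lower, and the named genes run from Ccl11 at 8.65 to Col2a1 at −7.02.

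Target and feedback genes of FGF and ERK signalling were higher in SCDM/FGF as a group. The list was chosen with earlier results of these data known, so its counts are a description. All 39 members were tested, and 30 rose (76.9%) and 4 fell (10.3%), against 21.8% and 21.3% of all genes tested. Of the 39, 23 were at least 2-fold higher and 0 at least 2-fold lower. The median log2 fold change of the list was 1.30, against −0.02 over all genes tested. Dusp6, which encodes a phosphatase that dephosphorylates ERK, was at 32.1, 27.5 and 31 scaled TPM in the SCDM libraries and at 189.98, 167 and 179 in the SCDM/FGF libraries. Spry4, which encodes a Sprouty inhibitor of receptor tyrosine kinase signalling, was at 1.79, 1.76 and 1.57 in SCDM and at 32.2, 32.5 and 33.3 in SCDM/FGF. Both were higher in every SCDM/FGF library than in any SCDM library, with log2 fold changes of 2.53 (standard error 0.0722, limma adjusted p = 3.6e-10) for Dusp6 and 3.64 (standard error 0.0708, limma adjusted p = 3.64e-11) for Spry4. Spheres, which had grown with bFGF at 10 ng/ml, held Dusp6 at 80.04, 85.1 and 85.3 and Spry4 at 23.8, 23.2 and 23.2, between the media for both genes.

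The other Sprouty and Spred inhibitors rose together. The log2 fold changes were 1.89 for Spry1, 1.54 for Spry2, 1.19 for Spry3, 1.27 for Spred1, 0.88 for Spred2 and 1.48 for Spred3. Among the other phosphatases, Dusp4 rose by 1.96, Dusp5 by 1.03 and Dusp1 by 0.41, whereas Dusp7 (0.08, limma adjusted p = 0.467) and Dusp14 (−0.22, limma adjusted p = 0.103) did not pass the test. The ETS transcription factors of the pathway rose as well, by 2.19 for Etv4, 1.42 for Etv1 and 1.30 for Etv5. Etv5 was at 16.2, 15.8 and 15.5 scaled TPM in SCDM and at 40.8, 40.9 and 39.8 in SCDM/FGF, so its libraries within a medium lay close to each other.

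The largest fold change of the list belonged to Hmga2, which encodes an architectural chromatin protein of embryonic and proliferating tissue. It was at 7.29, 8.75 and 7.42 scaled TPM in SCDM, at 165, 188 and 169 in SCDM/FGF and at 56.8, 51.6 and 54.3 in spheres. Its log2 fold change was 4.31 (standard error 0.0726, limma adjusted p = 1.19e-11), and that of its paralogue Hmga1 was 2.60. Fosl1, the AP-1 subunit FRA1, was at 3.42, 2.36 and 3.94 in SCDM and at 40.7, 41 and 39.4 in SCDM/FGF, a log2 fold change of 3.31. Ccnd1, which encodes cyclin D1, was at 96.8, 90.9 and 92.6 in SCDM and at 285, 311 and 298 in SCDM/FGF. Fos, another AP-1 subunit, was at 54.3, 48.2 and 46.7 in SCDM, at 46.8, 36.3 and 38.1 in SCDM/FGF and at 331, 317 and 321 in spheres, and fell by 0.30 between the media (limma adjusted p = 0.0204, 0.0814 without SCDM library 1, 0.0802 without SCDM/FGF library 2 and 0.0714 without SCDM/FGF library 3). Fosb was at 1.39, 0.981 and 1.06 in SCDM and at 1.34, 1.25 and 1.10 in SCDM/FGF, with overlap between the groups, and Egr1 rose by 0.50. The remaining members that fell were Lgals3 (−0.87), Il17rd (−0.54), which encodes the FGF feedback inhibitor SEF, and Egr2 (−0.47), a transcription factor of myelination, which did not pass the test when the model held the 6 libraries alone (limma adjusted p = 0.0658). Fos did not pass it there either (limma adjusted p = 0.074).

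**Figure D2:**
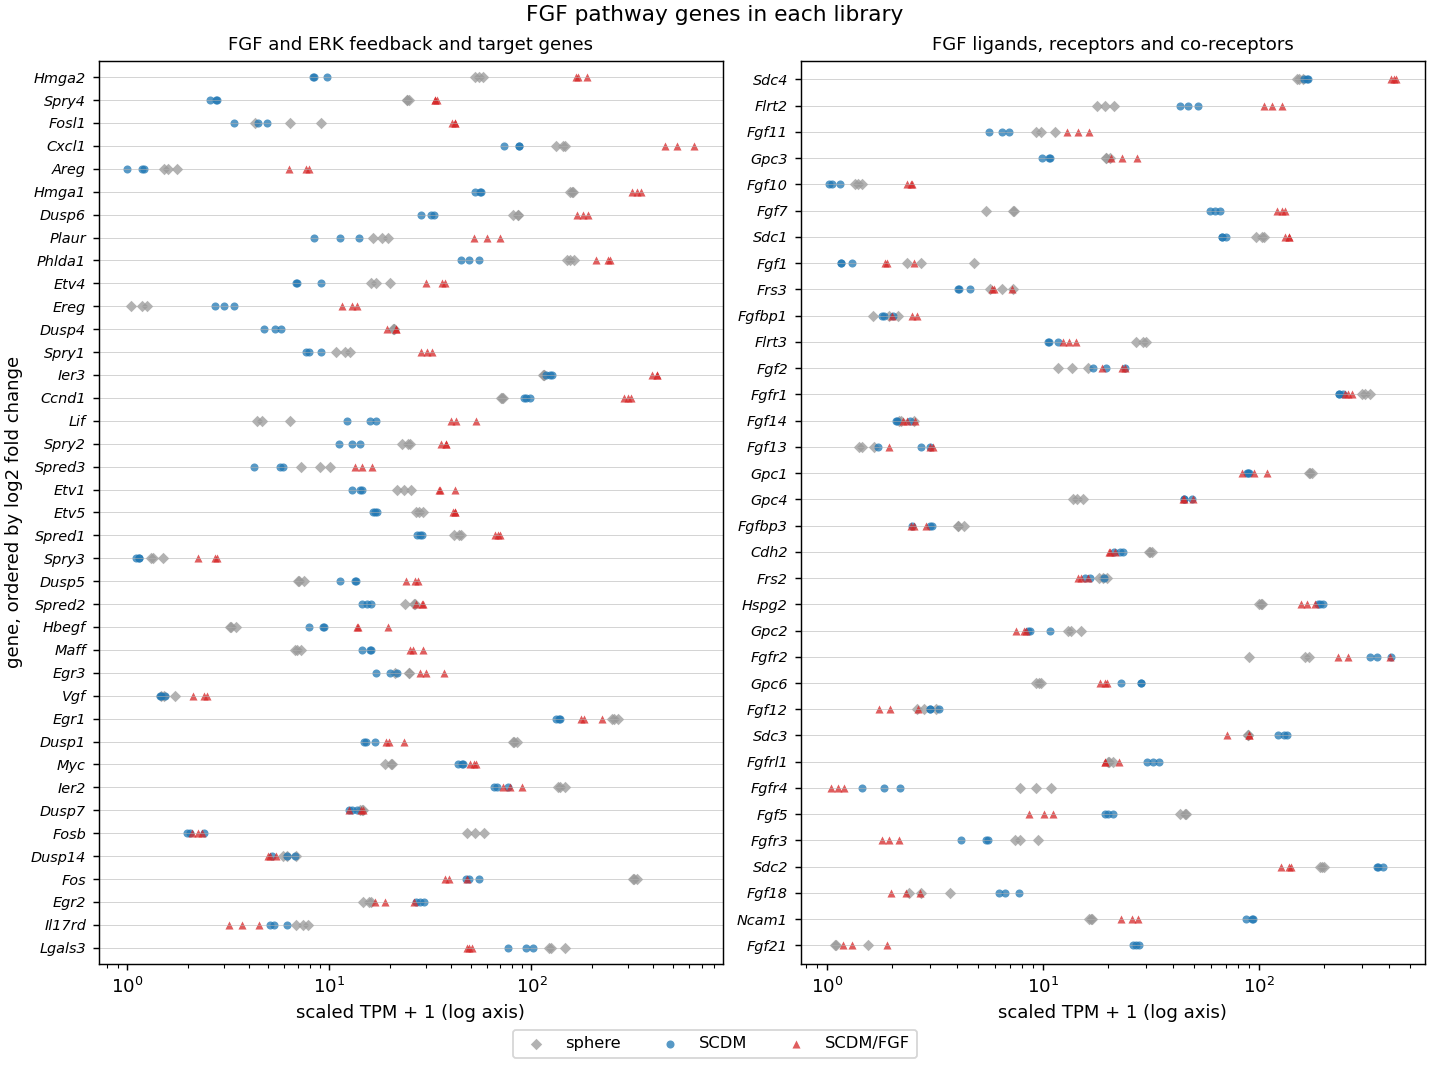
Each row is a gene and each point one library, with scaled TPM + 1 on a log axis, for spheres (grey diamonds, n = 3), SCDM (blue circles, n = 3) and SCDM/FGF (red triangles, n = 3), ordered by the log2 fold change between the media. In the left panel the red triangles lie to the right of the blue circles for the 30 members that rose, from Hmga2 at 4.31 down, and in the right panel the order is mixed.

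The ligands of the pathway moved in both directions. Of 24 genes listed, 13 were tested, and 4 rose and 4 fell. Fgf7, a mesenchymal ligand that acts on epithelial FGF receptors, was at 64.7, 61.6 and 58.6 scaled TPM in SCDM and at 119.7, 131 and 126 in SCDM/FGF, a log2 fold change of 1.02, while the spheres held 4.46, 6.29 and 6.33. Fgf21, a stress-responsive endocrine FGF, was at 25.8, 25 and 26.7 in SCDM and at 0.304, 0.886 and 0.183 in SCDM/FGF, and its groups were well apart. It had the lowest fold change of the ligands, at −4.23 (standard error 0.182, limma adjusted p = 8.28e-09). Fgf18 and Fgf5 fell too, with log2 fold changes of −1.58 and −1.03. Fgf2 itself, the transcript of the added factor, was at 16, 22.9 and 18.5 in SCDM and at 22.1, 23 and 17.6 in SCDM/FGF, with overlap between the groups (limma adjusted p = 0.518). Among the 11 genes below the limit for testing, Fgf3, Fgf4, Fgf6, Fgf8 and Fgf20 were listed at 0 in all 6 libraries.

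Receptor transcripts moved in both directions. Of 24 receptors, co-receptors and adaptors, 21 were tested, and 7 rose (33.3%) and 8 fell (38.1%), against 21.8% and 21.3% of all genes tested. Fgfr1, the most abundant receptor in spheres, was at 234, 244 and 234 scaled TPM in SCDM and at 269, 249.5 and 258 in SCDM/FGF, a log2 fold change of 0.12 that did not hold on the deposited TPM without rescaling (0.04, limma adjusted p = 0.637) or without SCDM library 1 or 3 or SCDM/FGF library 1 or 3 (limma adjusted p = 0.0898, 0.0959, 0.109 and 0.0674). Fgfr2 was at 325, 406 and 350.4 in SCDM and at 232, 258 and 404 in SCDM/FGF, and the groups overlapped (limma adjusted p = 0.402). Fgfr3 was at 4.45, 4.53 and 3.16 in SCDM and at 1.16, 0.937 and 0.803 in SCDM/FGF. It fell by 1.35 on the log2 scale (standard error 0.154, limma adjusted p = 2.68e-05), and the decoy receptor gene Fgfrl1 fell by 0.67. The heparan sulfate carriers differed among themselves. Sdc4, which encodes syndecan-4, was at 167, 166 and 161 in SCDM and at 419.7, 431 and 406 in SCDM/FGF, whereas Sdc2 was at 353, 354 and 372 in SCDM and at 125, 139.97 and 137 in SCDM/FGF. Their log2 fold changes were 1.34 and −1.42, with no overlap between the media for either gene. Ncam1, a cell adhesion molecule that can engage FGF receptors, was at 86.4, 92.5 and 91.9 in SCDM and at 26.6, 24.8 and 21.9 in SCDM/FGF, a log2 fold change of −1.85.

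**Figure D3:**
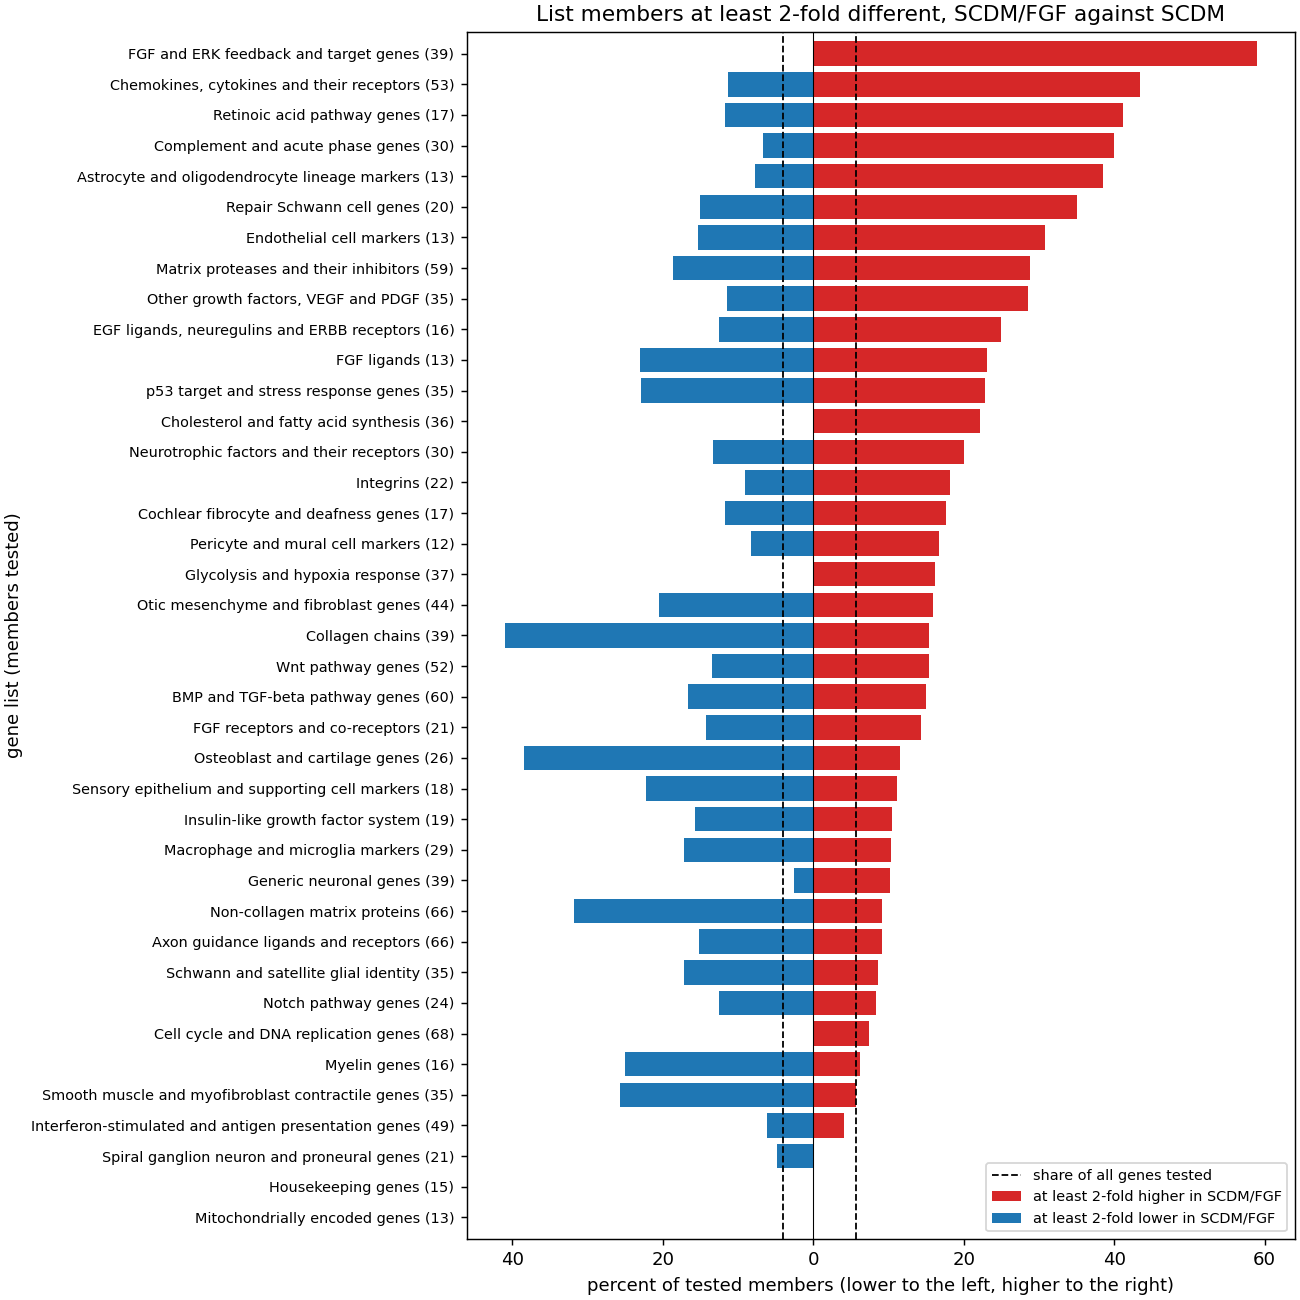
Bars give, for each gene list with at least 10 tested members, the percent of tested members at least 2-fold higher (red, to the right) and at least 2-fold lower (blue, to the left) in SCDM/FGF than in SCDM, and dashed lines give the same shares over all genes tested, 5.73% and 4.04%. The FGF and ERK target list reaches 59% higher, and the collagen list reaches 41% lower.

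Chemokine and cytokine genes were mostly higher in SCDM/FGF. Of 64 genes in the list, 53 were tested, and 32 rose (60.4%) and 10 fell (18.9%), against 21.8% and 21.3% of all genes tested. Of the 53, 23 were at least 2-fold higher and 6 at least 2-fold lower, with a median log2 fold change of 0.78. Ccl11, which encodes the eosinophil chemokine eotaxin, was at 0.800, 0.710 and 0.992 scaled TPM in SCDM, at 683, 684 and 842 in SCDM/FGF and at 9.44, 9.07 and 9.27 in spheres. It ranked first of the 12 genes named above, with a log2 fold change of 8.65 (standard error 0.0940, limma adjusted p = 8.51e-13). Il33, which encodes an alarmin of the interleukin-1 family, was at 74.3, 72.5 and 65.5 in SCDM and at 1892, 2089.7 and 2438 in SCDM/FGF. Its SCDM level lay close to that of the spheres (60.9, 65.5 and 67.9), and the log2 fold change was 4.89. Tnfsf11, which encodes RANKL, the ligand that drives osteoclast formation, was at 0.581, 0.588 and 0.586 in SCDM and at 91.7, 86.3 and 86.7 in SCDM/FGF. Ackr4, a scavenger receptor for chemokines, was at 0.609, 0.831 and 0.586 in SCDM and at 43.4, 37.7 and 46.1 in SCDM/FGF.

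Ccl2, a monocyte chemokine, was at 177, 193 and 196 scaled TPM in SCDM and at 1696, 1649.9 and 1903 in SCDM/FGF, a log2 fold change of 3.21, and Ccl8, a neighbour of Ccl2 and Ccl11 on chromosome 11, rose by 3.69. Cxcl1, a neutrophil chemokine, was at 72, 85.4 and 85.5 in SCDM and at 637, 455 and 523 in SCDM/FGF. Csf3, which encodes the granulocyte growth factor G-CSF, was at 0.0476, 0.0747 and 0.123 in SCDM and at 27.5, 21 and 21.2 in SCDM/FGF. Other members fell. Cxcl12, the stromal ligand of CXCR4, was at 1629.7, 1650.2 and 1591 in SCDM and at 422, 379 and 252 in SCDM/FGF, a log2 fold change of −2.24, and Tnf, Ccl3 and Ccl4, cytokines that macrophages make, fell as well, with log2 fold changes of −1.40, −1.20 and −1.46. The summed level of the 30 macrophage and microglia genes, which attractants and macrophage cytokines could move with, lay between 6858 and 7382 scaled TPM in SCDM and between 7071 and 7476 in SCDM/FGF, and their part in these differences was not tested.

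**Figure D4:**
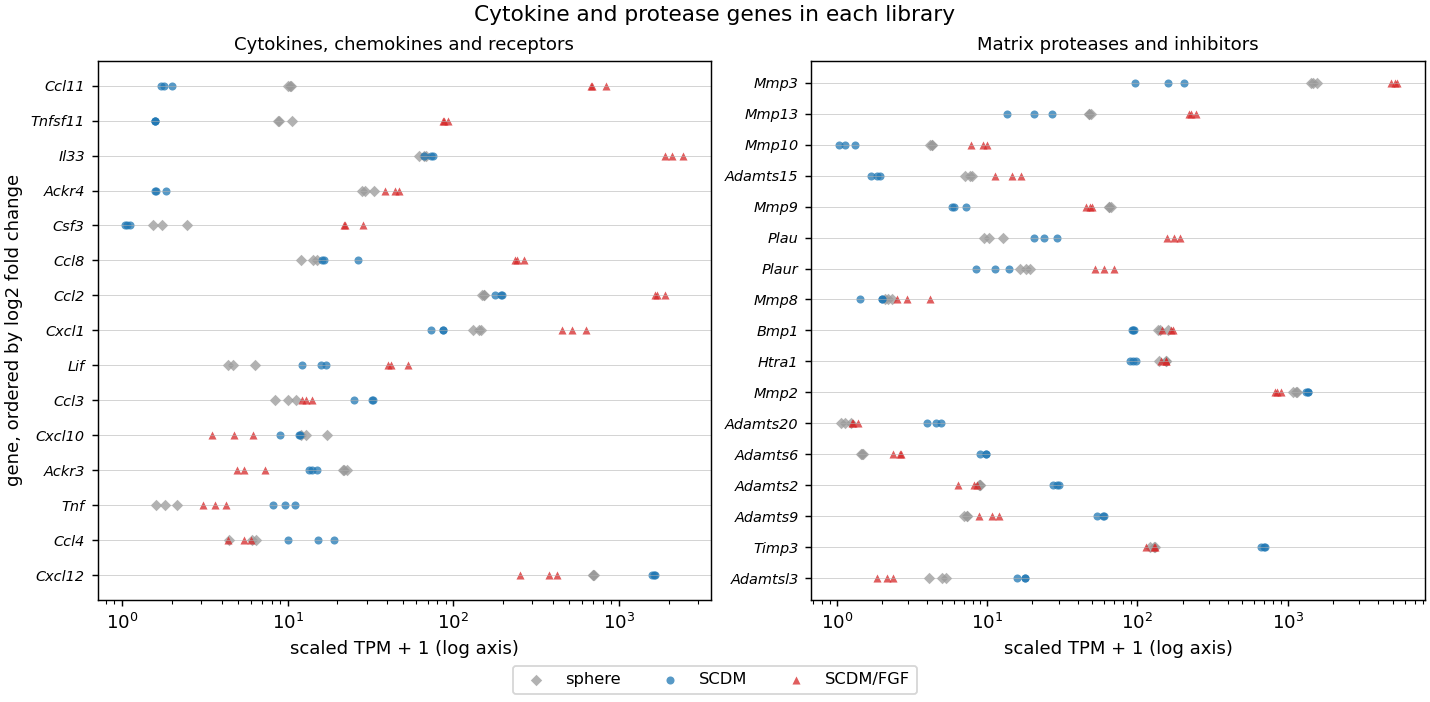
Cytokine, chemokine and receptor genes (left) and matrix protease and inhibitor genes (right) are ordered by log2 fold change, with scaled TPM + 1 of each library on a log axis and 3 libraries each of spheres (grey diamonds), SCDM (blue circles) and SCDM/FGF (red triangles). Ccl11 and Mmp3 head the panels at 8.65 and 5.13, and Cxcl12 and Adamtsl3 close them at −2.24 and −3.02.

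Matrix proteases and their inhibitors moved in both directions. Of 59 tested proteases and inhibitors in a list of 63, 27 rose (45.8%) and 21 fell (35.6%), against 21.8% and 21.3% of all genes tested. Of the 59, 17 were at least 2-fold higher and 11 at least 2-fold lower. Mmp3, which encodes stromelysin-1, was at 95.2, 158 and 204 scaled TPM in SCDM and at 5312, 4878 and 5206 in SCDM/FGF, and the spheres lay between them at 1437, 1575 and 1479. Its log2 fold change was 5.13 (standard error 0.209, limma adjusted p = 5.29e-09). Mmp13, a collagenase, was at 12.5, 19.5 and 25.8 in SCDM and at 227, 218 and 244 in SCDM/FGF, and Mmp10 and Mmp9 rose by 2.96 and 2.92. Plau, which encodes urokinase, was at 19.4, 22.8 and 28.1 in SCDM and at 175, 189.8 and 156 in SCDM/FGF, and Plaur, its receptor, was at 7.41, 10.3 and 13 in SCDM and at 50.9, 59.4 and 68.5 in SCDM/FGF. In contrast, Mmp2, a gelatinase of fibroblasts, fell by 0.65 on the log2 scale. Timp3, a matrix-bound inhibitor of metalloproteinases, was at 695, 703 and 663 in SCDM and at 128, 129 and 113 in SCDM/FGF, close to the spheres at 128, 120.1 and 130.4. The aggrecanase family member Adamts9 fell by 2.46 and the related Adamtsl3 had a log2 fold change of −3.02, whereas Adamts15 rose by 2.95.

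Promoters of these proteases were read for the AP-1 element TGAGTCA, since the AP-1 subunit gene Fosl1 was among the targets that rose and the element is well known from metalloproteinase promoters. On both strands (TGACTCA is the same element read from the other strand), it stood within 250 bases upstream of the start in 1466 of 32851 RefSeq promoters (4.46%), and in 4.05% of the 11411 tested genes with a promoter sequence. It stood in 54 of 664 genes at least 2-fold higher (8.13%) and in 28 of 452 at least 2-fold lower (6.19%). Of the 17 proteases and inhibitors at least 2-fold higher, 11 had a sequence and 5 held the element, and of the 9 with a sequence among those at least 2-fold lower, 0 did. These genes were chosen by their values, and the element was already known from metalloproteinase promoters, so the shares are a description. Mmp3, Mmp10 and Mmp13 are related genes that lie near each other on chromosome 9, so they are not separate cases. In 4 of the 5, it lay in the 120 bases before the start, which are shown from the RefSeq sequence of GRCm38.p6, on the gene's own strand (the plus strand for all 4), with the element in capitals:
Mmp3, chr9:7445702-7445821: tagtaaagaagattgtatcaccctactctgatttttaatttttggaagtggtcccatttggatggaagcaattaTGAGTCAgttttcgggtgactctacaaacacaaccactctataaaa
Mmp13, chr9:7272394-7272513: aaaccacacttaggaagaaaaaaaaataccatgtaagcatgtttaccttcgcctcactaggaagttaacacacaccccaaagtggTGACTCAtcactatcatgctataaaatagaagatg
Mmp10, chr9:7502222-7502341: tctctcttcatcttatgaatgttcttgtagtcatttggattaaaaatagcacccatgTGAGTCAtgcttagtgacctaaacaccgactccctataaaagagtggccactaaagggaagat
Plaur, chr7:24462363-24462482: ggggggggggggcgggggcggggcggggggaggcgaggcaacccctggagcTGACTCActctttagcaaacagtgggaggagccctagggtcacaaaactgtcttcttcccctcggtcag
The first base of the element lay 46 bases before the start of Mmp3, 35 before Mmp13, 63 before Mmp10 and 69 before Plaur. The remaining gene with the element, Adam19, also chosen after its values were seen, held it farther upstream. A match of letters does not show that the site is bound, and a part of AP-1 in these changes was not tested.

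More collagen chains fell than rose in SCDM/FGF. Of 43 chains, 39 were tested, and 22 fell (56.4%) and 11 rose (28.2%), against 21.3% and 21.8% of all genes tested. Of the 39, 16 were at least 2-fold lower and 6 at least 2-fold higher, with a median log2 fold change of −0.60. Col2a1, the principal collagen of cartilage, was at 4182, 4359 and 4416 scaled TPM in SCDM, at 34.2, 50.7 and 19.3 in SCDM/FGF and at 528, 487 and 485 in spheres. It fell by 7.02 on the log2 scale (standard error 0.246, limma adjusted p = 1.66e-09). Col9a1, a fibril-associated chain of cartilage, was at 282, 245 and 244 in SCDM and at 3.26, 2.95 and 0.722 in SCDM/FGF, and Col9a2, Col9a3 and Col11a2 fell with log2 fold changes of −4.38, −4.95 and −5.12. Col8a2, a network-forming collagen, was at 299.9, 295 and 279 in SCDM and at 1.48, 4.51 and 0.549 in SCDM/FGF. The chains of type I collagen fell less, with Col1a2 at 3219.9, 3481 and 3455 in SCDM and at 925, 1065 and 882 in SCDM/FGF. Among the chains that rose, Col15a1, of basement membrane zones, was at 2.32, 1.77 and 2.24 in SCDM and at 70.3, 53.1 and 58.2 in SCDM/FGF, a log2 fold change of 4.30, and Col23a1, a transmembrane collagen, rose by 2.92.

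Matrix proteins other than collagens fell in a similar share. Of 76 genes, 66 were tested, and 36 fell (54.5%) and 17 rose (25.8%), against 21.3% and 21.8% of all genes tested. Of the 66, 21 were at least 2-fold lower and 6 at least 2-fold higher. Eln, which encodes elastin, was at 562, 596 and 643 scaled TPM in SCDM and at 6.95, 23.4 and 7.46 in SCDM/FGF. Acan, the aggrecan gene, was also among the 12 genes with the lowest fold changes. Fmod, a small proteoglycan of tendon and cartilage, was at 156, 151 and 163 in SCDM and at 3.36, 16.5 and 3.49 in SCDM/FGF. For Eln and Fmod the SCDM/FGF libraries lay far below the SCDM libraries, and SCDM/FGF library 2 lay above the other two. Without that library, the log2 fold change was −6.19 for Eln and −5.16 for Fmod, against −5.67 and −4.49 with it. Postn, which encodes periostin, was at 1649.99, 1733 and 1790.4 in SCDM, at 158, 229 and 192 in SCDM/FGF and at 235, 235 and 247 in spheres. Members that rose were also abundant. Spp1, which encodes osteopontin, a secreted phosphoprotein of bone, macrophages and injured nerve, was at 4436, 5586 and 5984 in SCDM and at 30364, 30868 and 29604 in SCDM/FGF, a log2 fold change of 2.52, and the proteoglycan genes Dcn and Lum rose by 1.43 and 1.46. The summed level of the 76 genes was higher in SCDM/FGF (60550.4 to 62728.5 scaled TPM) than in SCDM (42825 to 45185), a smaller difference than that of Spp1 alone and opposite in direction to most members.

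Genes of osteoblasts and cartilage, a list that shares the collagens, aggrecan and Spp1 with those above, had 26 tested members of 34, of which 13 fell and 4 rose. Cnmd and Tnmd, which encode the related chondromodulin and tenomodulin of cartilage and tendon, were low in SCDM/FGF. Tnmd was at 56.4, 48.9 and 49.6 scaled TPM in SCDM and at 0.510, 0.796 and 0.417 in SCDM/FGF, and Cnmd fell by 4.40. Sox9, the transcription factor that drives Col2a1 and Acan in cartilage, was at 56.5, 56.4 and 55.1 in SCDM and at 47.9, 43.5 and 46.5 in SCDM/FGF, a log2 fold change of −0.28 that is far smaller than those of the matrix genes. Runx2, the regulator of the osteoblast lineage, was at 15.5, 15.7 and 16.4 in SCDM and at 14.7, 13 and 16.3 in SCDM/FGF, and its groups overlapped.

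Contractile genes of smooth muscle and myofibroblasts were lower with bFGF. Of 35 tested members in a list of 40, 23 fell (65.7%) and 6 rose (17.1%), against 21.3% and 21.8% of all genes tested. Of the 35, 9 were at least 2-fold lower and 2 at least 2-fold higher, with a median log2 fold change of −0.66. Acta2, which encodes smooth muscle actin, was at 95.2, 85 and 64.5 scaled TPM in SCDM, at 5.11, 7.28 and 5.90 in SCDM/FGF and at 1.48, 0.970 and 0.605 in spheres. Tagln, the actin-binding transgelin gene, was at 192, 171 and 142 in SCDM and at 8.47, 25.2 and 10.6 in SCDM/FGF. Their log2 fold changes were −3.53 (standard error 0.183, limma adjusted p = 3.68e-08) and −3.56 (standard error 0.306, limma adjusted p = 2.62e-06), and the light chain gene Myl9 fell by 2.55. SCDM/FGF library 2 was the highest of its group for Tagln, whose log2 fold change was −4.00 without it. The 4 smooth muscle markers (Acta2, Tagln, Cnn1 and Myh11) summed to between 207.7 and 291 scaled TPM in SCDM and between 14.2 and 34.7 in SCDM/FGF, against 1.51 to 2.36 in spheres. Myh11, which marks mature smooth muscle, stayed at or under 0.098 scaled TPM in all 6 libraries. The members at least 2-fold higher were Itga8 (4.04), an integrin subunit of mesenchyme, and Hspb1 (2.46), a small heat shock protein, and neither is part of the contractile apparatus.

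**Figure D5:**
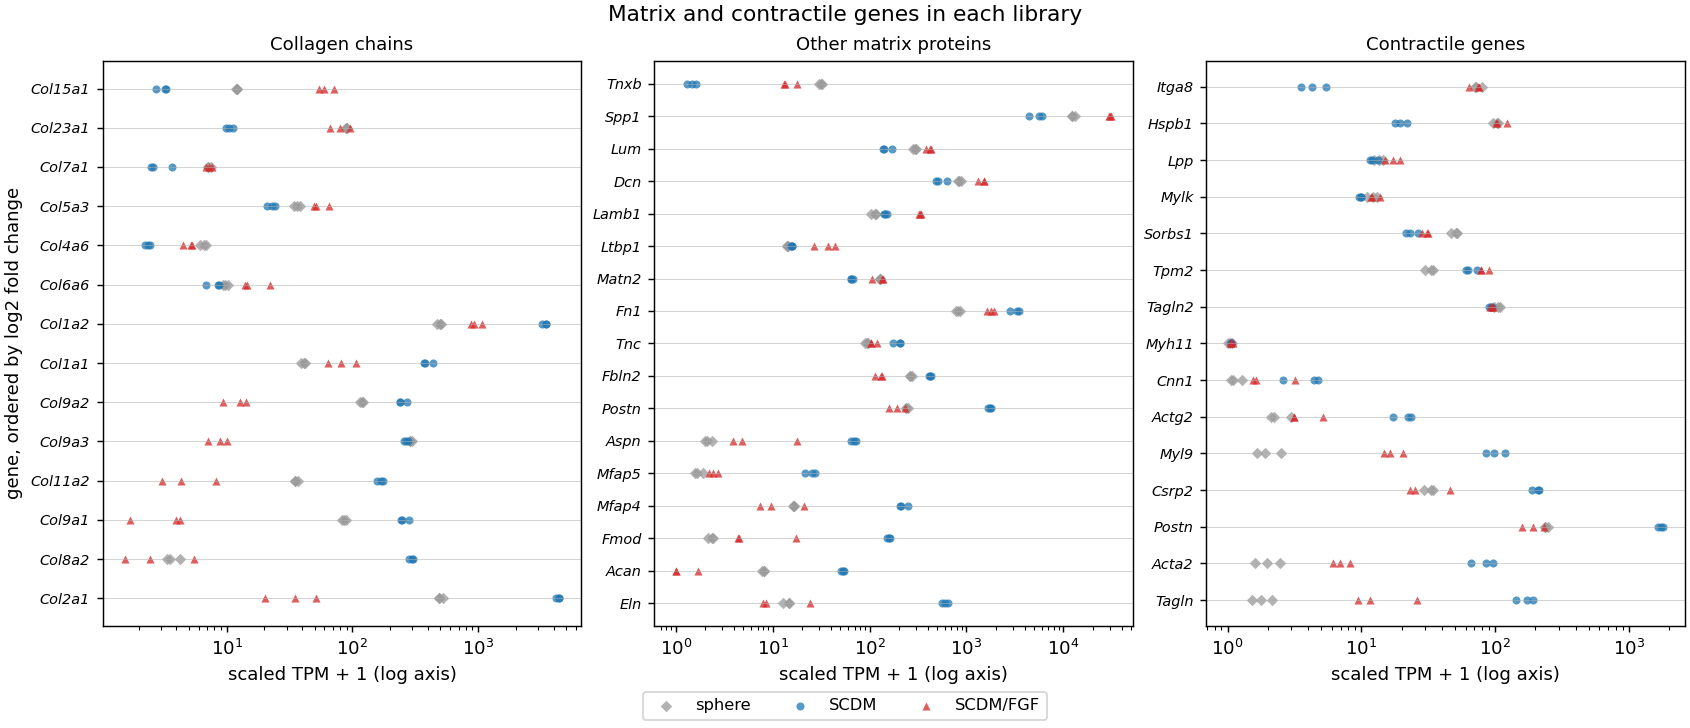
Collagen chains (left), other matrix proteins (middle) and contractile genes (right) are ordered by log2 fold change, with scaled TPM + 1 of each library on a log axis and 3 libraries each of spheres (grey diamonds), SCDM (blue circles) and SCDM/FGF (red triangles). Col2a1, Eln and Tagln stand at the foot of the panels at −7.02, −5.67 and −3.56, and Col15a1, Tnxb and Itga8 stand at the top.

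Mesenchymal and fibroblast identity genes moved in both directions, with 16 of 44 tested members up and 16 down. The 5 markers of these cells (Pou3f4, Sox9, Pdgfra, Prrx1 and Col1a1) summed to between 646 and 713 scaled TPM in SCDM and between 389 and 443 in SCDM/FGF. Col1a1 is itself a collagen chain, so the sum is not separate from the matrix differences above, and the markers did not all move the same way. The part of these cells in those differences was not tested. Pdgfra, a receptor of mesenchymal progenitors, was at 59.2, 63.6 and 59.8 scaled TPM in SCDM and at 147, 158 and 137 in SCDM/FGF, whereas its paralogue Pdgfrb fell by 0.87. Pou3f4, the transcription factor of otic mesenchyme, was at 151, 141 and 136 in SCDM and at 111, 107 and 103 in SCDM/FGF. The EMT regulators Snai1 and Snai2 went opposite ways, with log2 fold changes of 1.76 and −1.70. Of 17 tested genes of cochlear fibrocytes and hereditary deafness, 7 rose and 5 fell, and Otor, which encodes the secreted otoraplin of the cochlea, was at 931, 766 and 744 in SCDM and at 159, 201 and 132 in SCDM/FGF. Of 12 tested pericyte genes, 4 rose and 5 fell, and Rgs5 rose by 2.55, while Kcnj8, at −0.44, did not pass the test without SCDM library 1 (limma adjusted p = 0.121), SCDM library 2 (0.135), SCDM/FGF library 1 (0.127) or SCDM/FGF library 3 (0.0957). Without SCDM library 2, 3 members of the list fell.

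Schwann and satellite glial genes were divided between the directions. All 35 were tested, and 12 rose and 11 fell, with 3 at least 2-fold higher, 6 at least 2-fold lower and a median log2 fold change of 0.04. Sox10, the lineage factor of these glia, was at 30.02, 26.6 and 30.2 scaled TPM in SCDM and at 31.5, 25.8 and 35.6 in SCDM/FGF, with overlap between the media (limma adjusted p = 0.566), against 85.4, 83 and 82.5 in spheres. Ednrb, the endothelin receptor of glial precursors, rose by 1.25 and Fabp7, a fatty acid binding protein of immature glia, by 0.99. The adhesion molecule gene L1cam was at 11.9, 13.2 and 13.8 in SCDM and at 3.24, 2.87 and 3.78 in SCDM/FGF, and Gap43, a growth-associated protein of axons and denervated Schwann cells, fell by 1.14. For Mia, a secreted protein gene shared with cartilage, SCDM/FGF library 2 stood apart, at 0.902, 4.75 and 0.274 in the 3 libraries.

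Of the 16 tested myelin genes, 8 fell and 4 rose. Mbp, which encodes myelin basic protein, was at 34.8, 32.2 and 30.1 scaled TPM in SCDM and at 14.5, 14.4 and 11.7 in SCDM/FGF. Ncmap, a membrane protein of non-compact myelin, was at 18.9, 15.8 and 17.6 in SCDM and at 0.235, 0.181 and 0.224 in SCDM/FGF, the lowest fold change of the list at −3.92 (standard error 0.141, limma adjusted p = 2.02e-09). Of 20 genes of the repair Schwann cell, 11 rose and 4 fell, and the members that rose share several entries with the FGF target and cytokine lists (Hmga2, Ccl2 and Lif). Shh, the morphogen that Schwann cells make after nerve injury, was at 0.724, 0.682 and 0.444 in SCDM and at 6.81, 4.21 and 6.77 in SCDM/FGF. Jun, the AP-1 factor needed for the repair state, was at 105, 109 and 102 in SCDM, at 172, 168 and 162 in SCDM/FGF and at 305, 302 and 307 in spheres. Ngfr, the p75 neurotrophin receptor, and Gfap did not pass the test (limma adjusted p = 0.517 and 0.808).

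Neurotrophic factors and their receptors moved in both directions, with 13 of 30 tested members up and 11 down. Bdnf, the transcript of a factor both media contained as protein, was at 1.61, 1.64 and 1.77 scaled TPM in SCDM and at 13.4, 17.4 and 15.2 in SCDM/FGF. It was higher in every SCDM/FGF library, with a log2 fold change of 2.61 (standard error 0.0987, limma adjusted p = 2.99e-09). Ntf3, the gene of the other added factor, stayed at or under 0.0571 in all 6 libraries. As to the receptors, Ntrk2, the BDNF receptor TrkB, was at 42, 45.1 and 38.6 in SCDM and at 225, 192 and 186 in SCDM/FGF, and Ntrk3, the NT3 receptor TrkC, rose by 0.76. Gfra1, a co-receptor for GDNF, rose by 1.56, while Gfra3, which binds artemin, was at 2.22, 2.62 and 1.84 in SCDM and at 0.157, 0.282 and 0.112 in SCDM/FGF. Ptn, which encodes the heparin-binding factor pleiotrophin, was the most abundant of the list in SCDM at 837, 745 and 733 and was at 129.6, 156 and 118 in SCDM/FGF, a log2 fold change of −2.52. Its relative Mdk fell by 0.89.

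Of 39 tested generic neuronal genes, 11 rose (28.2%), 3 fell (7.69%) and 25 were not called. Over all genes tested, 21.8% rose and 21.3% fell. Tubb3, the tubulin that the TUJ1 antibody detects, was at 12, 11.7 and 11 scaled TPM in SCDM and at 12.4, 9.92 and 12.7 in SCDM/FGF, with overlap between the media. Without SCDM/FGF library 1, 6 members fell, and on the deposited TPM without rescaling 5 fell. The members at least 2-fold higher included the neurofilament genes Nefm and Nefl. Nefm was at 0.257, 0.196 and 0.293 in SCDM, at 11.3, 8.16 and 9.21 in SCDM/FGF and at 6.89, 7.47 and 8.16 in spheres, a log2 fold change of 3.07, and Nefl rose by 2.08, while the heavy chain gene Nefh stayed at or under 0.142 in all 6 libraries. Of 34 spiral ganglion neuron and proneural genes, 21 were tested, and 3 rose (14.3%) and 6 fell (28.6%). Neurog1, Pou4f1 and Isl1, transcription factors of the lineage, stayed at or under 0.114 in each of the 6 libraries, and 5 other members of the list were listed at 0. Gata3 was at 0.181, 0.177 and 0.189 in SCDM and at 0.284, 0.443 and 0.356 in SCDM/FGF (limma adjusted p = 0.206).

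Macrophage genes went both ways, and of 29 tested 10 rose (34.5%) and 9 fell (31%), against 21.8% and 21.3% of all genes tested. Adgre1, which encodes F4/80, was at 184, 200.1 and 214 scaled TPM in SCDM and at 100.5, 79.8 and 79.6 in SCDM/FGF, and Cx3cr1, the fractalkine receptor of microglia and resident macrophages, fell by 1.31. Mrc1, the mannose receptor gene, was at 41.4, 41.4 and 43.4 in SCDM and at 102, 105 and 86.9 in SCDM/FGF, and Clec4n and Pf4 rose by 1.33 and 1.35. Csf1r and Cd68 did not pass the test (limma adjusted p = 0.347 and 0.107). Cd74, the invariant chain of MHC class II, was at 16.9, 16 and 12.8 in SCDM and at 1.85, 1.38 and 2.06 in SCDM/FGF.

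Of 13 tested endothelial genes, 6 rose and 3 fell. Cdh5, which encodes VE-cadherin, was at 1.55, 1.38 and 1.04 scaled TPM in SCDM and at 36.9, 34.3 and 38.7 in SCDM/FGF, a log2 fold change of 4.02, and Emcn rose by 2.69. Erg, an ETS factor of endothelium and of cartilage, was at 28.3, 31 and 31.1 in SCDM and at 0.715, 1.23 and 0.651 in SCDM/FGF. Of the defining markers, Pecam1 was at 1.11, 0.997 and 0.518 in SCDM/FGF and overlapped with SCDM, Cldn5 was at or under 0.224 in all 6 libraries, and Tie1 was at or under 0.274. Of the melanocyte genes, 5 of 13 were tested, 1 rose and 2 fell, and Tyr and Dct stayed at or under 0.0813. Of 18 tested genes of the sensory epithelium, 4 rose (22.2%) and 4 fell (22.2%), close to the shares of all genes tested. At least 2-fold changes were more frequent, with 2 higher (11.1%) and 4 lower (22.2%), against 5.73% and 4.04% of all genes tested. The 4 markers (Epcam, Myo7a, Atoh1 and Otof) summed to between 35.5 and 45.9 scaled TPM in SCDM and between 10.5 and 13.7 in SCDM/FGF. In that list, 3 members, the hair cell gene Otof among them, were listed at 0. Cdh1, the epithelial cadherin gene, was at 9.06, 9.08 and 8.22 in SCDM and at 0.235, 0.101 and 0.0407 in SCDM/FGF. Of the muscle lineage genes, 3 of 17 were tested and 0 were called by limma, and 2 of the 3, named after their values were seen (Tnnt1 at −0.60 and Tnnc1 at −0.59) had an unadjusted p under 0.05. Among astrocyte and oligodendrocyte lineage genes, 8 of 13 tested rose and 1 fell, led by Gja1 (connexin 43) at 13.3, 18.1 and 15.3 in SCDM and 134, 177 and 191 in SCDM/FGF.

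Interferon-stimulated genes depended on single libraries. Of 49 tested genes, 7 rose (14.3%) and 9 fell (18.4%), against 21.8% and 21.3% of all genes tested. Ifit3 was at 29.3, 30.6 and 53.5 scaled TPM in SCDM and at 35, 8.92 and 9.49 in SCDM/FGF, so SCDM/FGF library 1 lay with the SCDM libraries, and SCDM library 3 lay above the rest. Ifit1 was at 8.90, 11.1 and 19.995 in SCDM and at 13.4, 3.97 and 5.13 in SCDM/FGF, with the same libraries high. Without SCDM/FGF library 1, 28 members fell and 6 rose, and without SCDM library 3, 6 fell and 6 rose. Ifitm1, which belongs to the list but was apart from this pattern, was at 21.5, 21.6 and 21.4 in SCDM and at 812, 679 and 669 in SCDM/FGF, a log2 fold change of 5.00 (standard error 0.249, limma adjusted p = 2.84e-08).

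Complement and acute phase genes were higher with bFGF. Of 30 tested genes in a list of 31, 21 rose (70%) and 4 fell (13.3%), against 21.8% and 21.3% of all genes tested. Of the 30, 12 were at least 2-fold higher and 2 at least 2-fold lower. Saa3, a serum amyloid gene of injured tissue, was at 275, 346 and 485 scaled TPM in SCDM, at 3535, 2488 and 4086 in SCDM/FGF and at 4253, 4859.6 and 4128 in spheres. Masp1, a protease of the lectin pathway, rose by 3.85, and Hp, the haptoglobin gene, by 2.84. Ptx3, a pentraxin, was at 888, 901 and 1002 in SCDM and at 182, 162 and 122 in SCDM/FGF, and Chil1, a chitinase-like gene, fell by 3.97. The C1q genes, which macrophages make, stood at log2 fold changes of 0.39 (C1qa), 0.33 (C1qb) and 0.38 (C1qc), and without SCDM library 2 or SCDM/FGF library 1 neither C1qa (limma adjusted p = 0.0629 and 0.0521) nor C1qc (0.104 and 0.0885) passed the test. C1qc did not pass it without SCDM library 3 (0.0864) or SCDM/FGF library 2 (limma adjusted p = 0.0585) either.

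Genes of lipid synthesis rose by small amounts in nearly every member. Of 36 genes of cholesterol and fatty acid synthesis, all were tested and 31 rose (86.1%) and 1 fell (2.78%), against 21.8% and 21.3% of all genes tested. Of the 36, 8 were at least 2-fold higher, around a median change of 0.62 on the log2 scale. Idi1, an isomerase of the cholesterol pathway, was at 46.8, 42.2 and 44.8 scaled TPM in SCDM and at 89.1, 93.4 and 96.5 in SCDM/FGF, a log2 fold change of 1.04, and Msmo1, a later enzyme, rose by 1.12. The exception was Acaca, the carboxylase that starts fatty acid synthesis, at −0.34, which did not pass the test without SCDM/FGF library 3 (limma adjusted p = 0.0943), SCDM library 2 (0.0937) or SCDM library 3 (0.0861). Of 37 glycolysis and hypoxia genes, 26 rose, 4 fell and the median was 0.64. Slc2a1, the glucose transporter GLUT1, was at 32.2, 34.1 and 34.4 in SCDM and at 95.1, 103 and 92.9 in SCDM/FGF, Pgk1 rose by 0.81, and Adm, which encodes the hypoxia-responsive peptide adrenomedullin, was at 25.8, 26.3 and 26.8 in SCDM and at 221, 273 and 204 in SCDM/FGF. Gapdh, often used as a reference gene, rose by 0.70, and of 15 housekeeping genes 9 rose and 4 fell, none of them 2-fold, and 5 rose without rescaling. All 13 mitochondrially encoded genes were tested, and 2 rose (mt-Nd1 and mt-Nd2) and 0 fell by limma, with 0 lower at an unadjusted p under 0.05. Neither rise passed the test without SCDM library 2, SCDM library 3 or SCDM/FGF library 3, nor with the 6 libraries modelled alone, 1 rose without SCDM/FGF library 2, and on the deposited TPM without rescaling 1 rose and 2 fell.

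Of 17 tested retinoic acid pathway genes in a list of 20, 9 rose and 5 fell. Aldh1a2, a retinaldehyde dehydrogenase that makes retinoic acid, was at 22.2, 20.4 and 20.3 scaled TPM in SCDM, at 353, 367 and 422 in SCDM/FGF and at 45.8, 47.1 and 43.9 in spheres, a log2 fold change of 4.12 (standard error 0.0630, limma adjusted p = 5.73e-12). Aldh1a3 and Rdh10, which act in the same pathway, rose by 2.97 and 2.65, while Aldh1a1 fell by 1.64. Rara and Rarg, receptor genes, had log2 fold changes of −0.67 and −0.59.

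Stress response genes were called in nearly every member but in both directions, with 17 of 35 up and 16 down. The metallothioneins Mt1 and Mt2, which bind zinc and copper, were among the more abundant transcripts. Mt1 was at 455, 477 and 503 scaled TPM in SCDM and at 4308, 4534 and 4202 in SCDM/FGF, and Mt2 rose by 2.73. Trib3, Chac1, Ddit3 and Asns, targets of the ATF4 branch of the integrated stress response, fell with log2 fold changes of −3.56, −3.73, −2.12 and −1.51. Trib3 was at 40.1, 43.8 and 46.9 in SCDM and at 2.52, 3.12 and 2.68 in SCDM/FGF, close to the spheres at 2.42, 2.79 and 2.18. Of 68 tested cell cycle genes, 17 rose (25%) and 16 fell (23.5%), close to the 21.8% and 21.3% of all genes tested. Of the 68, 5 were at least 2-fold higher (Ccnd1, Ccnd3, E2f8, Cdkn2a and Cdkn1a, which include inhibitors of the cycle) and 0 at least 2-fold lower. Without SCDM library 3, 10 fell. Mki67, a marker of cycling cells, was at 16, 20.5 and 19.9 in SCDM and at 12.4, 15.9 and 11.2 in SCDM/FGF, against 5.37, 4.71 and 6.30 in spheres, and its log2 fold change of −0.49 (limma adjusted p = 0.0144) did not pass the test without SCDM library 2 (limma adjusted p = 0.0571), SCDM library 3 (0.0523) or SCDM/FGF library 3 (0.0605). Top2a, another, did not pass the test (limma adjusted p = 0.553).

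Other signalling families had members at both ends, and their counts stand beside the 21.8% that rose and 21.3% that fell among all genes tested. Of 60 tested BMP and TGF-beta genes, 23 rose and 22 fell, and the activin subunit genes Inhba and Inhbb rose by 2.18 and 3.48, while Chrdl1, a secreted BMP antagonist, was at 165, 187 and 185 scaled TPM in SCDM and at 2.14, 1.87 and 2.22 in SCDM/FGF. Of 52 tested Wnt genes, 17 rose and 21 fell. The secreted inhibitors Wif1 and Sfrp2 had opposite log2 fold changes, 3.12 and −4.57, and the agonists Rspo2 and Rspo3 fell, at −2.53 and −1.99. Of 24 tested Notch genes, 5 rose (20.8%, near the share of all genes tested) and 8 fell (33.3%). The ligand gene Jag1 and the target Hey1 fell, at −1.16 and −1.34. Of 16 tested genes of the EGF family, 6 rose and 2 fell. The ligand genes Areg and Ereg rose by 2.69 and 2.07, while Egfr, the receptor, was at 60.3, 64.7 and 55.2 in SCDM and at 21.1, 16.9 and 15.4 in SCDM/FGF. Of 19 tested genes of the IGF system, 9 rose and 8 fell. Of 22 tested integrins, 8 rose and 9 fell, from Itga8, described above, to Itga11, a collagen-binding subunit, which was at 32.9, 37.7 and 34.5 in SCDM and at 5.87, 8.36 and 4.49 in SCDM/FGF.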

How the data were processed

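Poly(A) RNA-seq of 12 mouse libraries was measured, and the 3 SCDM and 3 SCDM/FGF libraries were compared. The values are TPM per gene, deposited by the authors as a single matrix. The submitters' processing notes name TopHat, Cufflinks and RSEM without roles, and the genome build is not given in the sources used here. TPM keeps no read depth, so no counting error can be given, and precision rests on 3 libraries a group. Libraries were rescaled by a trimmed mean of log2 ratios (30% trimmed at each end, 8434 genes of at least 5 TPM in every library). Genes that reached 1 TPM in 3 or more libraries (16016 of 55487) were tested on log2(scaled TPM + 1) with limma 3.58.1 in R 4.3.3, in a model of the 4 groups with a variance trend and Benjamini-Hochberg adjustment. The spheres and the fourth group, FIBCL, entered through the shared spread, the limit for testing and the rescaling, all taken over the 12 libraries. A gene near 0 in the 6 libraries could therefore count as tested. "Rose" and "fell" mean an adjusted p under 0.05, and at least 2-fold also a log2 fold change of 1 or more in size. For single values, an exact permutation test of 3 against 3 cannot go below p = 0.1 and was not used. Python 3.11.15, pandas 2.3.3 and matplotlib 3.10.9 made the summaries and plots. On simulated data with normal noise, 200 of 200 genes changed by 2 on the log2 scale were recovered with 4 false calls over 16016 genes. The changed genes were not drawn from those at low levels, and calls there needed an at least 2-fold change. The processing was set to stop unless this check passed. It gives no error rate for calls by adjusted p alone. Gene identifiers were matched to the mouse GENCODE release M21 (55227 of 55487).

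The members and the 41 gene lists (1318 genes) were chosen with earlier results of these data known. Named genes were all members of the FGF ligand, receptor, target and neurotrophic lists, up to 6 called genes a direction in each other list (mean of at least 1 scaled TPM) and its first 3 members, the 12 highest and 12 lowest fold changes overall (mean of at least 10 scaled TPM, no overlap), the cell type markers and the genes that the study names. Alternatives changed the pseudocount, the scaling, the fold threshold, the limit for low genes, the libraries in the model, the variance trend and a replicate block, and left out each library in turn. A few list members are not reported here by name.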

Additional observations from a re-analysis of the deposited data

How the results depend on the processing

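At an adjusted p under 0.05 alone (limma), 3491 genes were higher and 3419 lower, and with a log2 fold change of 1.5 or more in size, 462 were higher and 315 lower. Under the other alternatives, the genes at least 2-fold higher numbered 744 (at least 5 TPM) to 1253 (pseudocount of 0.1) and those at least 2-fold lower 521 to 945, and with a library left out they numbered 913 to 939 and 635 to 685. Without rescaling, the share of higher genes among all called was 39.1%, against 50.5% with it. Same-numbered libraries did not deviate together from their group means (r = −0.12, −0.05 and −0.09 over all genes tested). This cannot exclude that they shared a dissection or batch, which the labels do not state. With the replicate block, 921 genes were at least 2-fold higher and 650 lower over all libraries, and 901 and 637 over the 6 libraries alone. Calls by limma adjusted p alone were fewer with the block. They numbered 3394 up and 3298 down over all libraries, and 2601 up and 2422 down over the 6 libraries alone. Of 452 called named genes, 398 kept their call and direction in all 17 alternatives, 54 lost it in at least 1, and 0 reversed. Of the 54, 40 lost it with a replicate block and 35 with a library left out. Of 1394 list counts compared, 35 in 14 lists moved by over 1.5 times, and the causes were not tested. TPM gives no depth, so differences in genes at low levels could not be weighed against counting error.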

Other observations

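Axon guidance genes moved in both directions. Of 66 tested members in a list of 68, 23 rose and 27 fell, with 6 at least 2-fold higher and 10 at least 2-fold lower. Sema3a, which encodes a secreted semaphorin that repels growing axons, was at 3.65, 3.09 and 3.04 scaled TPM in SCDM and at 27.4, 28.1 and 24.9 in SCDM/FGF, a log2 fold change of 2.71 (standard error 0.0984, limma with Benjamini-Hochberg adjusted p = 2.17e-09). Unc5c, a netrin receptor, was at 13, 14.1 and 13 in SCDM and at 2.20, 1.72 and 1.15 in SCDM/FGF, and Ntn4, a netrin of basement membranes, fell by 1.95 on the log2 scale. The groups did not overlap for these genes.

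Of 35 tested growth factor genes of the VEGF, PDGF and related families, 18 rose and 7 fell, with 10 at least 2-fold higher and 4 at least 2-fold lower. Vegfd, a lymphatic growth factor, was at 0.448, 0.532 and 0.671 scaled TPM in SCDM and at 16.1, 14.7 and 17.2 in SCDM/FGF, and Angpt2, an angiopoietin, rose by 2.45. Pdgfc, a PDGF ligand, was at 24.7, 23.1 and 23.2 in SCDM and at 4.63, 4.80 and 3.89 in SCDM/FGF. Vegfd was higher and Pdgfc lower in every SCDM/FGF library.

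The following genes were chosen after their values were seen. Apod, which encodes apolipoprotein D, was at 2117, 1944 and 1888 scaled TPM in SCDM and at 23519, 21426 and 23696 in SCDM/FGF. Trf, which encodes transferrin, was at 148, 124 and 131 in SCDM and at 2135, 2152 and 1811 in SCDM/FGF. Both were higher in every SCDM/FGF library. Sparc, a matrix glycoprotein gene, was at 5932, 5913 and 5927 in SCDM and at 1601, 1747 and 1664 in SCDM/FGF, lower in every SCDM/FGF library. Mcpt8, a protease gene, was at 1.68, 1.74 and 1.76 in SCDM and at 179.5, 268 and 175 in SCDM/FGF. The granzyme genes Gzme and Gzmd, which lie near Mcpt8 on chromosome 14, were at 195, 261 and 138 and at 7.17, 17 and 3.23 in SCDM/FGF. These protease genes have close paralogues, so how the reads were divided among them is uncertain.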
